A study of Rattus norvegicus with 28 samples.

Results

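The circadian clock genes described here are Arntl, Clock, Per1, Per2, Per3, Cry1, Cry2, Nr1d1, Nr1d2 and Dbp. They were taken by gene symbol from a table of 36387 annotated genes and assembled transcripts, and each symbol matched 1 gene record. The list was chosen with earlier results of these data known. All 10 passed the filter on low counts that left 17404 genes for testing. The tissue was prefrontal cortex, taken from adult males of the outbred Sprague-Dawley rat stock that were 8 weeks old when they arrived. Every animal was injected intraperitoneally, first with ketanserin or its 5% Tween-80 vehicle and then with psilocybin or saline, and tissue was collected 24 h later. Psilocybin is a serotonergic psychedelic, and ketanserin is an antagonist of the serotonin 2A receptor that also binds other receptors. The 28 libraries formed 7 groups of 4 biological replicates, which were vehicle with vehicle, vehicle with psilocybin at 1 or 3 mg/kg, ketanserin at 1 or 3 mg/kg with saline, and both drugs together at 1 mg/kg or at 3 mg/kg apiece. No group had been left uninjected. The hour of day of injection or collection was not stated in the labels used here, and each animal was sampled once, so that levels at 1 time are described and no rhythm.

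The mammalian clock is a transcriptional feedback loop that runs in most cells. The proteins of Arntl (also called Bmal1) and Clock pair and activate genes through E-box sequences, among them the Per and Cry genes, whose products enter the nucleus and repress that pair. Nr1d1 and Nr1d2 encode the REV-ERB repressors, which act on Arntl through ROR elements, and Dbp encodes an output factor that binds D-box sequences. Outside the suprachiasmatic nucleus, the central pacemaker of the hypothalamus, Per1 and Per2 also respond to neuronal activity and to glucocorticoids.

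The promoter sequences below are shown because they hold the letters through which the loop is known to act. RefSeq windows on build GRCr8 were matched for 9 of the 10 genes, all but Cry1, with 11 windows of 250 bases before a transcription start among them. Each line runs 5′ to 3′ on the strand of the gene, and capitals mark the motif found.
Arntl, chr1:176766292-176766327, plus strand, ROR element: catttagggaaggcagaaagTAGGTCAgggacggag
Per2, chr9:99497030-99497205, minus strand, D-box and then E-box variant: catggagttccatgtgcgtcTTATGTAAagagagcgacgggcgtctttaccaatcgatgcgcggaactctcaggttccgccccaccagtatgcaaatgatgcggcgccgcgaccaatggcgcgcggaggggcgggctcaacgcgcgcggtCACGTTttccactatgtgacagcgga
Cry2, chr3:98860624-98860669, minus strand, E-box variant: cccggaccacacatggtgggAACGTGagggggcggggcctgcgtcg
Nr1d1, chr10:84231961-84232006, minus strand, E-box variant: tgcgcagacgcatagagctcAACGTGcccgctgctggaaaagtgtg
Nr1d1, second start, chr10:84229620-84229665, minus strand, E-box: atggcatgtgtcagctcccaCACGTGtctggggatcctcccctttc

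Motifs were searched on both strands, and overlaps between motifs were not merged. The E-box CACGTG was found in 1 of the 9 genes, at the second start of Nr1d1, 191 bases before it, and 5.59% of the 33469 windows of all genes hold it. The E-box variant CACGTT, read as AACGTG on the other strand, was found in 3 genes, 62 bases before the start of Per2, 212 before that of Cry2 and 174 before that of Nr1d1, against 4.07% of all windows. The D-box letters TTATGTAA or TTACGTAA were found in Per2 alone, 192 bases before its start, and in 0.932% of all windows. The ROR element TAGGTCA was found in Arntl alone, 16 bases before its start, and in 2.26% of all windows. The cyclic AMP response element TGACGTCA (1.59% of all windows) and its shorter form TGACGT (6.95%), which the full element contains, were found in 0 of the 9. Counted by window, as the shares of all windows are, the E-box was in 1 of the 11 windows and its variant in 3. The D-box and the ROR element were in 1 of the 11 each. These matches describe letters in short windows, and sites farther away were not searched.

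Total counts per library were 12783067 to 18538414. Mean counts per library over the 10 genes ran from 151 for Cry1 to 2980 for Dbp. The RNA carried the 4 listed markers of cortical excitatory neurons at a summed 2368 to 3223 CPM (counts scaled to library size), and 4 markers of the suprachiasmatic nucleus and hypothalamus at 33.1 to 66.1 CPM. Nearly all of the latter was Vip, which cortical interneurons also express, at 49.4 ± 7.38 CPM (SD, n = 28), while Avp was at 0.467 CPM, Hcrt at 0.044 CPM and Six6 at 0 in all 28 libraries. Cldn5, an endothelial marker, was also at 0 in all of them, so that a 0 in this table does not show that a cell type was absent. The summed level of 4 oligodendrocyte markers varied between 1925 and 7476 CPM. The library of both drugs at 3 mg/kg numbered 4 stood apart, with 19602 genes at 0 against 15344 to 16657 in the others. Bulk RNA cannot tell fewer cells of a type from less RNA per cell.

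Per length of transcript, Dbp was the most abundant of the 10 genes and Cry1 and Per3 the least. In the authors' deposited FPKM (fragments per kilobase of gene length, scaled to library size), Dbp was at 113 ± 20.4 (SD, n = 28 libraries). Nr1d1 followed at 49.8 ± 6.45 and Cry2 at 33.1 ± 3.89 FPKM. Each of these was above the next gene in 28 of 28 libraries. Per1 was at 18.9 ± 3.21 FPKM and was above Nr1d2 in 26 of 28 libraries. Nr1d2, at 14.5 ± 1.83 FPKM, and Arntl, at 14.3 ± 1.46 FPKM, were not separated, since Nr1d2 was the higher in 13 of 28 libraries, and their order was the opposite in the mean of the vehicle libraries. Per2 was at 7.07 ± 1.38 FPKM, below Arntl in every library. Clock, the partner of Arntl, was at 4.64 ± 0.586 FPKM and was above Per3 in 25 of 28. Per3 (3.41 ± 1.04 FPKM) and Cry1 (3.32 ± 0.491 FPKM) were not separated, with Per3 higher in 13 of 28 libraries. Nr1d1 shares 1059 bases with Thra on the opposite strand, which was at 667 CPM, and the labels do not say whether reads were counted by strand, so that the level of Nr1d1 is uncertain.

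**Figure D1:**
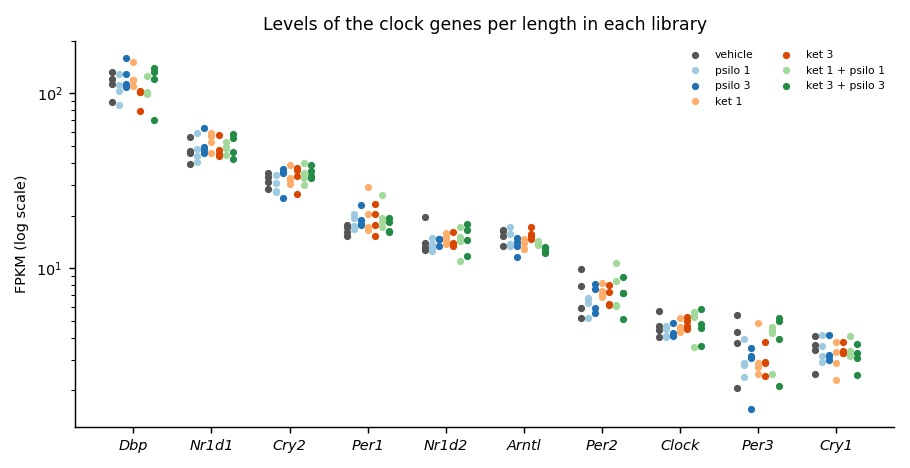
Deposited FPKM of each clock gene in each of the 28 libraries on a log axis, ordered by the mean over libraries, with colours for the 7 groups. Dbp lies above all others, and the points of Nr1d2 and Arntl and those of Per3 and Cry1 lie at the same height.

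None of the 10 clock genes passed the test in any comparison. With 18 contrasts and 1 test of any difference among the 7 groups, 190 tests were made on them by edgeR's quasi-likelihood test, and the Benjamini-Hochberg adjusted p over the tested genes ranged from 0.693 to 1.00 in the 18 contrasts. DESeq2 also called 0 of the 10. The background was as low. The share of all tested genes called at an adjusted p under 0.05 was 0% in 16 of the 18 contrasts, 0.00575% (1 gene) for both drugs at 3 mg/kg against vehicle and for the mean of both combination groups against vehicle, and 0.0172% (3 genes) for any difference among the groups.

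An unadjusted p under 0.05 was reached in 8 of the 190 tests, 5 of them for Arntl and 1 each for Per1, Per3 and Dbp. The share of all tested genes at that level was 1.66% for psilocybin at 1 mg/kg against vehicle, where 0 clock genes were, and 3.00% at 3 mg/kg, where 0 were. It was 2.06% for ketanserin at 1 mg/kg, with 1 clock gene (Per1), and 2.0% at 3 mg/kg, with 0. It was 1.3% for both drugs at 1 mg/kg, with 0, and 3.13% at 3 mg/kg, with 1 (Arntl). Against psilocybin alone, both drugs gave 4.13% at 1 mg/kg and 5.74% at 3 mg/kg, with 0 clock genes in each. Against ketanserin alone, both drugs gave 2.92% at 1 mg/kg with 0 clock genes and 3.41% at 3 mg/kg with 1 (Arntl). The dose comparisons, 3 against 1 mg/kg, gave 3.24% for psilocybin with 0, 1.64% for ketanserin with 2 (Arntl and Dbp) and 3.30% for both drugs with 0. The interactions, both drugs minus each drug plus vehicle, gave 4.09% at 1 mg/kg with 0 and 3.20% at 3 mg/kg with 1 (Per3). With the 2 doses averaged against vehicle, the share was 1.96% for psilocybin with 0, 2.10% for ketanserin with 0 and 1.80% for both drugs with 1 (Arntl), and it was 2.22% for any difference among the groups, with 1 (Arntl).

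**Figure D2:**
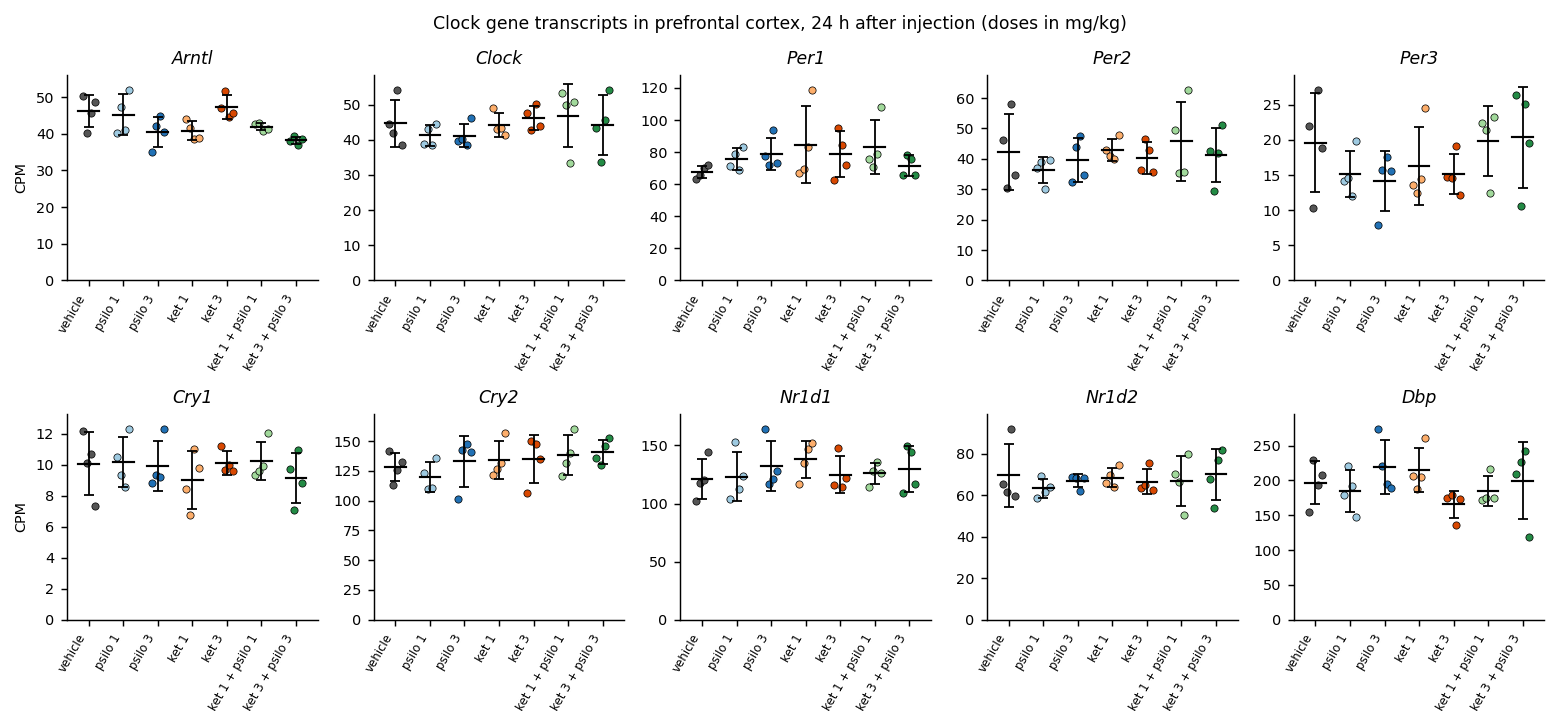
CPM of each clock gene by group, with a point for each library, a bar at the mean and error bars of 1 SD (n = 4); each vertical axis starts at 0. The 4 libraries of both drugs at 3 mg/kg sit between 37.0 and 39.3 for Arntl, below all 4 vehicle libraries.

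Arntl encodes BMAL1, the partner of CLOCK on E-boxes, and it is the gene shown above with a ROR element. Its vehicle libraries were at 50.4, 40.2, 45.6 and 48.7 CPM. With psilocybin at 1 mg/kg they were at 40.3, 47.4, 41.0 and 52.0 CPM, and at 3 mg/kg at 35.0, 42.0, 44.7 and 40.4 CPM. Both groups overlapped the vehicle libraries. With ketanserin at 1 mg/kg they were at 44.1, 41.5, 38.7 and 38.9 CPM, and at 3 mg/kg at 47.1, 51.8, 44.5 and 45.6 CPM. All 4 values at the higher ketanserin dose lay above all 4 at the lower. With both drugs at 1 mg/kg Arntl was at 42.7, 42.9, 40.9 and 41.3 CPM, and at 3 mg/kg at 38.0, 39.3, 37.0 and 38.6 CPM. The last group lay wholly below vehicle, below ketanserin at 3 mg/kg and below both drugs at 1 mg/kg.

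The mean of Arntl was 46.2 ± 4.45 CPM (SD, n = 4) in vehicle and 38.2 ± 0.982 CPM (SD, n = 4) with both drugs at 3 mg/kg. This is a log2 fold change of -0.27 (95% interval -0.47 to -0.08), or 0.827-fold, with an unadjusted p of 0.00668 and an adjusted p of 0.999 by edgeR. It was the only 1 of 60 pairs of a clock gene and a treated group whose libraries did not overlap the vehicle libraries. The shares of all tested genes whose groups did not overlap were 1.14% in this comparison, 1.36% and 2.11% for psilocybin at 1 and 3 mg/kg, 1.87% and 1.70% for ketanserin at 1 and 3 mg/kg and 1.32% for both drugs at 1 mg/kg. With a fit of only the groups compared, the unadjusted p was 0.0562.

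Against vehicle, the log2 fold change of Arntl was -0.03 for psilocybin at 1 mg/kg and -0.19 at 3 mg/kg, -0.18 for ketanserin at 1 mg/kg and 0.03 at 3 mg/kg, and -0.14 for both drugs at 1 mg/kg. These 5 had unadjusted p-values from 0.0515 to 0.742. The values against vehicle share the 4 vehicle libraries. Both drugs at 3 mg/kg against ketanserin at 3 mg/kg gave -0.31 (unadjusted p = 0.00296, adjusted p = 1.00 by edgeR), the smallest unadjusted p of the 190 tests, with groups that did not overlap, as for 1.70% of tested genes. Ketanserin at 3 against 1 mg/kg gave 0.21 (unadjusted p = 0.0316, adjusted p = 1.00), where 1.98% of tested genes had groups that did not overlap. Both drugs at 3 against 1 mg/kg gave -0.13 (unadjusted p = 0.164), where 1.34% did. The 2 combination groups averaged gave -0.21 against vehicle (unadjusted p = 0.0152). Without the first vehicle library this p was above 0.05 and the value was -0.17, and without the fourth the p was also above 0.05. The test of any difference among the 7 groups gave an unadjusted p of 0.0243 and an adjusted p of 1.00.

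Clock showed no such pattern. This gene encodes the histone acetyltransferase that pairs with BMAL1. Its libraries ranged from 33.5 to 54.2 CPM, and the 7 group means from 41.2 ± 3.37 (psilocybin at 3 mg/kg) to 46.9 ± 9.05 CPM (both drugs at 1 mg/kg; SD, n = 4). Its log2 fold changes against vehicle ran from -0.12 for psilocybin at 3 mg/kg to 0.07 for both drugs at 1 mg/kg. The difference between the responses of Arntl and Clock was not tested.

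**Figure D3:**
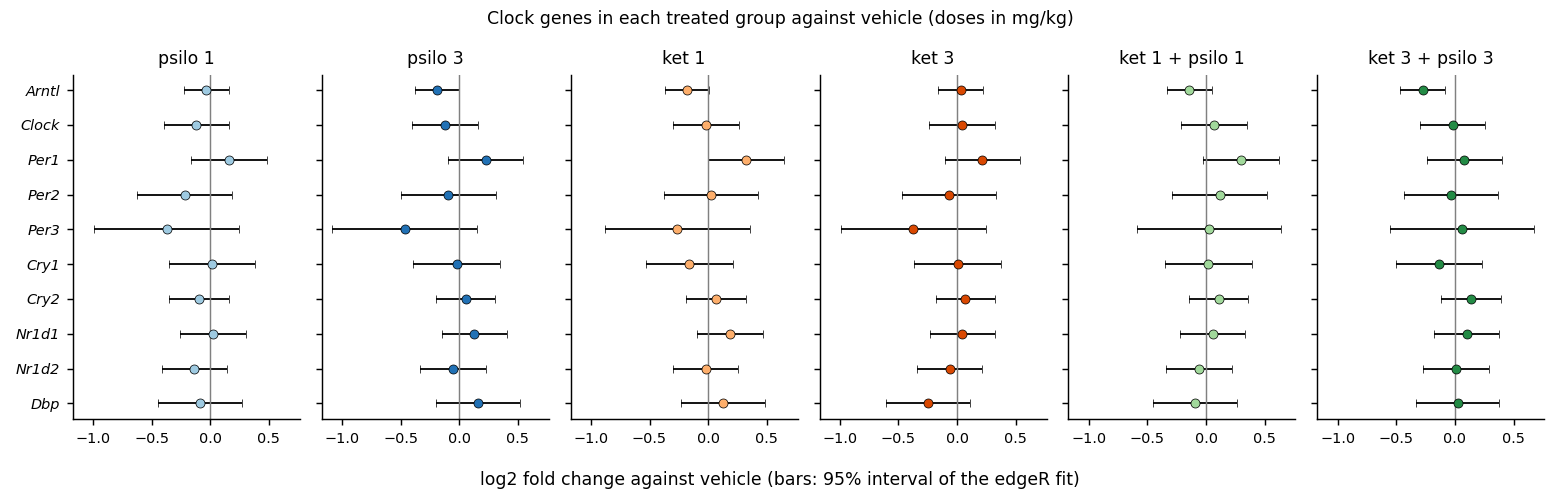
Log2 fold change of each clock gene against vehicle in the 6 treated groups (points) with the 95% interval of the edgeR fit (bars). Arntl with both drugs at 3 mg/kg and Per1 with ketanserin at 1 mg/kg have intervals that leave out 0, before adjustment, and the intervals of Per3 are the widest.

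Per1 encodes a repressor of the loop that can be induced within hours by neuronal activity. Its vehicle libraries were the closest together, at 63.2, 65.5, 69.9 and 71.9 CPM. With psilocybin at 1 mg/kg they were at 71.2, 78.9, 68.7 and 83.5 CPM, and at 3 mg/kg at 77.5, 71.8, 93.5 and 73.3 CPM. Both groups reached above the vehicle range and overlapped it at the lower end. With ketanserin at 1 mg/kg Per1 was at 67.1, 69.6, 83.3 and 119 CPM, and at 3 mg/kg at 62.3, 95.3, 84.5 and 72.2 CPM. With both drugs it was at 75.6, 70.7, 78.6 and 108 CPM at 1 mg/kg and at 65.9, 78.5, 75.6 and 66.0 CPM at 3 mg/kg. All 6 groups overlapped vehicle, and the highest library in each of ketanserin at 1 mg/kg and both drugs at 1 mg/kg was far above its other 3.

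The log2 fold changes of Per1 against vehicle were all above 0. They were 0.16 and 0.22 for psilocybin at 1 and 3 mg/kg, 0.32 and 0.22 for ketanserin at 1 and 3 mg/kg, and 0.30 and 0.08 for both drugs at 1 and 3 mg/kg. The value for ketanserin at 1 mg/kg had an unadjusted p of 0.0482 and an adjusted p of 1.00 by edgeR. It was 0.12 without the fourth ketanserin library, and its unadjusted p was above 0.05 in 12 of the fits that left out a library. The 6 values share the vehicle libraries, so that 6 of the same sign are not 6 separate observations.

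Per2, the family member most tied to the pace of the rhythm, ranged from 29.5 to 62.7 CPM over the libraries. Its group means lay between 36.3 ± 4.27 CPM (psilocybin at 1 mg/kg) and 45.8 ± 13.0 CPM (both drugs at 1 mg/kg; SD, n = 4). The log2 fold changes against vehicle, from -0.22 to 0.12 in the same 2 groups, were within the spread between animals. The D-box and E-box variant printed above stand before its start.

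Per3, the least essential of the Per genes for rhythm, varied most. Its vehicle libraries were at 22.0, 10.4, 27.1 and 18.8 CPM, a wide spread within a group. With psilocybin it was at 14.2, 14.6, 11.97 and 19.8 CPM at 1 mg/kg and at 7.88, 15.7, 17.5 and 15.5 CPM at 3 mg/kg. With ketanserin it was at 13.7, 12.5, 14.5 and 24.6 CPM at 1 mg/kg and at 14.7, 14.5, 19.1 and 12.2 CPM at 3 mg/kg. Each of these 4 groups had its median below the vehicle median, and every one overlapped vehicle. With both drugs it was at 22.4, 21.4, 12.5 and 23.3 CPM at 1 mg/kg and at 26.4, 10.6, 25.1 and 19.5 CPM at 3 mg/kg.

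Against vehicle, the log2 fold change of Per3 was -0.37 and -0.47 for psilocybin at 1 and 3 mg/kg, -0.26 and -0.37 for ketanserin at 1 and 3 mg/kg, and 0.02 and 0.06 for both drugs at 1 and 3 mg/kg. The interaction at 3 mg/kg was 0.90 (95% interval 0.03 to 1.77, unadjusted p = 0.0442, adjusted p = 0.993 by edgeR). Leaving out a library moved it between 0.70 and 1.12, and in 11 of those fits the unadjusted p was above 0.05. With a measure of each library's tilt toward long genes as a covariate, described below, it was 0.56 (unadjusted p = 0.0236).

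Cry1 and Cry2 encode the cryptochromes, the main repressors of CLOCK and BMAL1. Cry1 ranged from 6.73 to 12.3 CPM, and its log2 fold changes against vehicle ran from -0.16 (ketanserin at 1 mg/kg) to 0.02 (both drugs at 1 mg/kg). Its group means lay between 9.01 ± 1.85 and 10.2 ± 1.23 CPM in the same 2 groups (SD, n = 4). Cry2 ranged from 101.5 to 160 CPM, with log2 fold changes from -0.10 (psilocybin at 1 mg/kg) to 0.14 (both drugs at 3 mg/kg). Its group means were 120 ± 12.4 and 141 ± 10.3 CPM there (SD, n = 4), against 128 ± 11.8 CPM in vehicle. Neither gene had a group apart from vehicle.

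Nr1d1 and Nr1d2, the REV-ERB repressors, had no treated group apart from vehicle. Group means of Nr1d1 lay between 121 ± 17.4 CPM (vehicle) and 138 ± 15.7 CPM (ketanserin at 1 mg/kg; SD, n = 4). Those of Nr1d2 lay between 63.4 ± 4.64 CPM (psilocybin at 1 mg/kg) and 70.1 ± 12.3 CPM (both drugs at 3 mg/kg; SD, n = 4). Nr1d1 ranged from 102 to 164 CPM, with log2 fold changes from 0.02 (psilocybin at 1 mg/kg) to 0.19 (ketanserin at 1 mg/kg), and all of its reads carry the doubt about Thra given above. Nr1d2 ranged from 50.7 to 91.9 CPM, with log2 fold changes from -0.14 (psilocybin at 1 mg/kg) to 0.01 (both drugs at 3 mg/kg). Its highest library was the third of vehicle.

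Dbp, the output factor, was at 155, 229, 194 and 207 CPM in vehicle. It was at 179, 221, 192 and 147 CPM with psilocybin at 1 mg/kg and at 274, 220, 195 and 188 CPM at 3 mg/kg. It was at 206, 188, 204 and 261 CPM with ketanserin at 1 mg/kg and at 174, 179, 136 and 173 CPM at 3 mg/kg. The second of these ketanserin groups lay wholly below the first, and 1.98% of all tested genes had groups that did not overlap in that comparison. It was at 172, 175, 216 and 174 CPM with both drugs at 1 mg/kg and at 210, 226, 242 and 119 CPM at 3 mg/kg. The value of 119 CPM was in the library that stood apart. All 6 treated groups overlapped vehicle.

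The log2 fold changes of Dbp against vehicle were -0.09 and 0.16 for psilocybin at 1 and 3 mg/kg, 0.13 and -0.24 for ketanserin at 1 and 3 mg/kg, and -0.09 and 0.02 for both drugs at 1 and 3 mg/kg. Ketanserin at 3 against 1 mg/kg gave -0.37 (unadjusted p = 0.0411, adjusted p = 1.00 by edgeR). It was -0.27 without the fourth library of ketanserin at 1 mg/kg, where the unadjusted p was above 0.05, as it was without any of 3 libraries of ketanserin at 3 mg/kg. In the same comparison Arntl was the only other clock gene whose groups did not overlap, and its difference had the opposite sign. The share of all tested genes without overlap there was 1.98%.

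Taken as a list, the clock genes were not displaced in 1 direction. Against vehicle, 3 of 10 had a positive log2 fold change with psilocybin at 1 mg/kg (median -0.09) and 4 of 10 at 3 mg/kg (median -0.04). With ketanserin 5 of 10 were positive at 1 mg/kg (median 0.00) and 6 of 10 at 3 mg/kg (median 0.02). With both drugs 7 of 10 were positive at 1 mg/kg (median 0.04) and 6 of 10 at 3 mg/kg (median 0.02). The medians over all tested genes in the 6 comparisons were between -0.02 and -0.01. The half-width of the 95% interval in a comparison of 2 groups was 0.19 log2 units for the tightest of the 10 genes, Arntl. It was 0.30 in the median and 0.62 for Per3, with 4 animals a group. These intervals are not adjusted for the number of genes, so that a larger difference could also fail the adjusted test. The -0.27 of Arntl with both drugs at 3 mg/kg was larger in size than its half-width and was not called.

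The genes differed in how much they varied between animals of a group. The biological coefficient of variation of the edgeR fit was 10.2% for Arntl, and 94.3% of the 2353 genes of similar level varied more. It was 13.0% for Cry2, 14.0% for Clock and Nr1d1, 14.1% for Nr1d2 and 16.0% for Per1. Of genes at the same level, 31.5% (Per1) to 54.2% (Clock) varied more than these. Cry1 was at 17.8%, and 82.4% of genes at its level varied more. Dbp was at 17.7%, Per2 at 19.7% and Per3 at 29.6%, and 23.1%, 24.4% and 16.5% of genes at their level varied more.

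Several clock genes moved together from library to library. Over the 28 libraries, 12 of the 45 pairs had a correlation of log2(CPM + 0.5) with an adjusted permutation p under 0.05. Of these, 11 were positive (100000 permutations, two-sided, adjusted over the 45 pairs). The share of pairs of all tested genes that would pass was not computed, so that the 12 cannot be called particular to clock genes. For some of them a high r with other genes was common, as given below. Clock and Nr1d2 were the closest pair, with a Pearson r of 0.79 (permutation p = 1e-05, the smallest that can be given, adjusted p = 0.000225) and a Spearman rho of 0.71 (p = 8e-05, adjusted p = 0.0030). Per2 and Nr1d2 had r = 0.72 (p = 1e-05, adjusted 0.000225) and rho = 0.65 (p = 0.00020, adjusted 0.0030). Per2 and Per3 had r = 0.71 (p = 5e-05, adjusted 0.00075) and rho = 0.68 (p = 0.00017, adjusted 0.0030). Clock, Per2, Per3 and Nr1d2 formed a block in which all 6 pairs passed.

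Within that block, Clock and Per2 had r = 0.60 (rho = 0.54, adjusted permutation p-values 0.0072 and 0.0175), Per3 and Nr1d2 r = 0.58 (rho = 0.60, adjusted 0.00837 and 0.00963), and Clock and Per3 r = 0.55 (rho = 0.56, adjusted 0.0101 and 0.0142). Cry2 correlated with Per2 at r = 0.56 (rho = 0.55, adjusted 0.0101 and 0.0173), with Per3 at r = 0.56 (rho = 0.51, adjusted 0.0101 and 0.0263) and with Per1 at r = 0.53 (rho = 0.45, adjusted 0.0183 and 0.0609). Nr1d1 correlated with Dbp at r = 0.58 (rho = 0.53, adjusted 0.0087 and 0.0193) and with Per1 at r = 0.49 (rho = 0.58, adjusted 0.0304 and 0.0127). Clock and Dbp were the negative pair, at r = -0.55 (rho = -0.59, adjusted 0.0125 and 0.00963). Arntl and Cry1 were in none of the 12 pairs. Arntl and Dbp were close to the threshold, at r = -0.44 (permutation p = 0.0186, adjusted 0.0642) and rho = -0.47 (p = 0.0129, adjusted 0.0484). Their r was -0.64 (adjusted 0.0036) without the library of both drugs at 3 mg/kg that stood apart, and -0.35 (adjusted 0.212) without the first library of psilocybin at 3 mg/kg. Without the 2 libraries farthest from the median of the first gene of a pair, 9 of the 12 still passed, and r was 0.69 for Clock and Nr1d2, 0.60 for Per2 and Nr1d2 and 0.66 for Per2 and Per3. It was 0.34 for Per1 and Cry2, 0.48 for Clock and Per3 and 0.48 for Nr1d1 and Dbp, the 3 that no longer passed. With group means removed, 8 pairs passed. Clock with Per2 (r = 0.58, adjusted permutation p = 0.0711) and with Per3 (r = 0.55, adjusted 0.067) no longer did. Nor did Clock with Dbp (r = -0.56, adjusted permutation p = 0.0545) and Per1 with Nr1d1 (r = 0.47, adjusted 0.0519).

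A measure of the libraries moved with these levels. For each library, the Spearman rho across genes between gene length and the deviation of a gene from its own mean level was taken, so that a library above 0 is tilted toward long genes. This length measure, computed after the data had been seen, ran from -0.32 to 0.31 over the libraries. It correlated with the level of Per3 at r = 0.85, Per2 at 0.75, Cry2 at 0.69, Nr1d2 at 0.64, Clock at 0.63, Cry1 at 0.46, Per1 at 0.31 and Arntl at 0.24, and with Nr1d1 at -0.28 and Dbp at -0.56, given as a description since the genes are part of the same libraries. The gene lengths of the annotation run from 9419 bases for Clock to 1702 for Dbp. Of all tested genes, 36.2% had an r above 0.6 in size with the measure, and 5 of the 10 clock genes did.

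**Figure D4:**
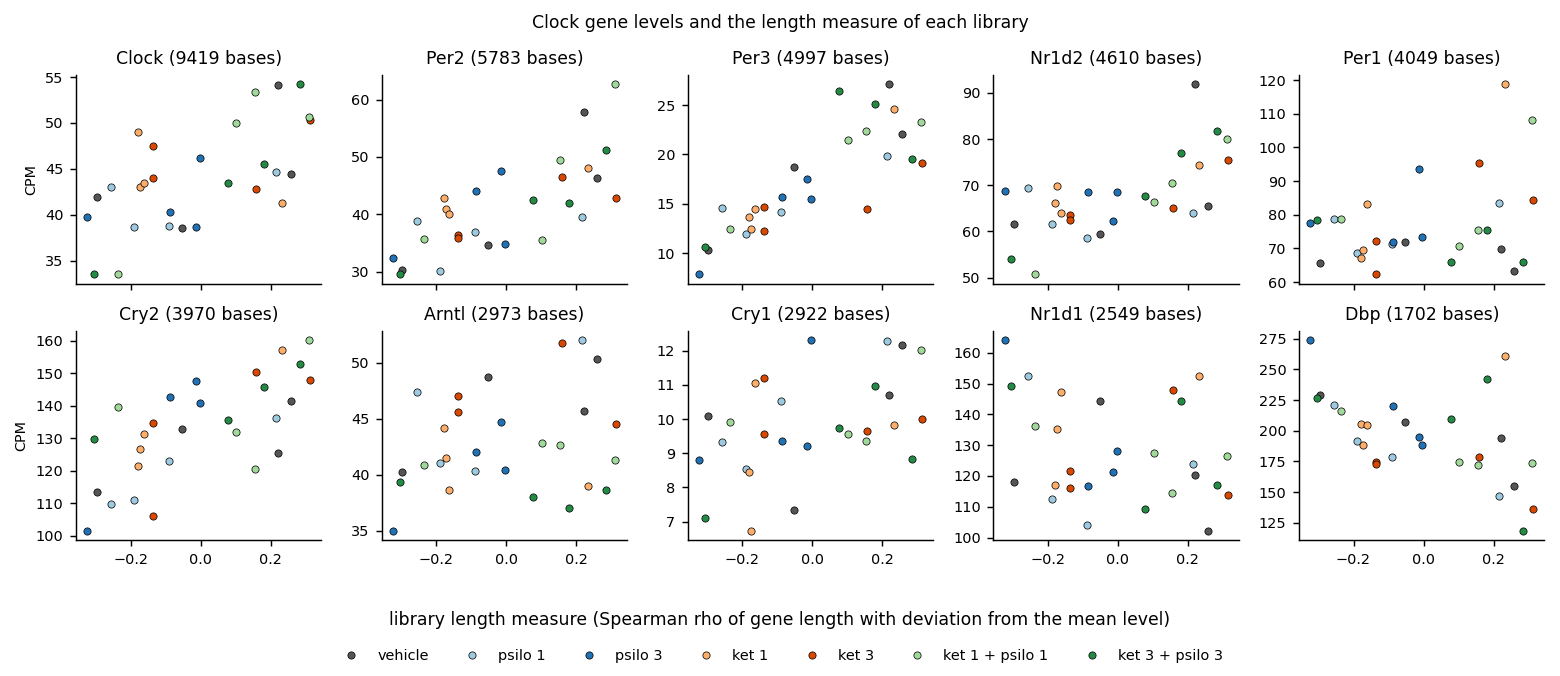
CPM of each clock gene in the 28 libraries against the length measure of the library, with the genes ordered by length and colours for the groups; vertical axes do not start at 0. Per3 and Per2 run up with the measure (r = 0.85 and 0.75) and Dbp runs down (r = -0.56).

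With the length measure regressed out, 4 of the 45 pairs passed, 3 of which were among the 12. Clock and Nr1d2 then had r = 0.65 (adjusted permutation p = 0.00495), Per1 and Nr1d1 r = 0.64 (adjusted 0.00495) and Nr1d1 and Dbp r = 0.53 (adjusted 0.0387). Clock and Cry2 had r = -0.56, a pair that had not passed before. The r of Per2 with Per3 was then 0.20, of Clock with Per3 0.03 and of Per3 with Cry2 -0.07. The part of RNA quality, dissection or library preparation in the length measure was not tested. The means of the measure per group ran from -0.11 (psilocybin at 3 mg/kg) to 0.08 (both drugs at 1 mg/kg), and the range within each group was wider than that between the means.

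**Figure D5:**
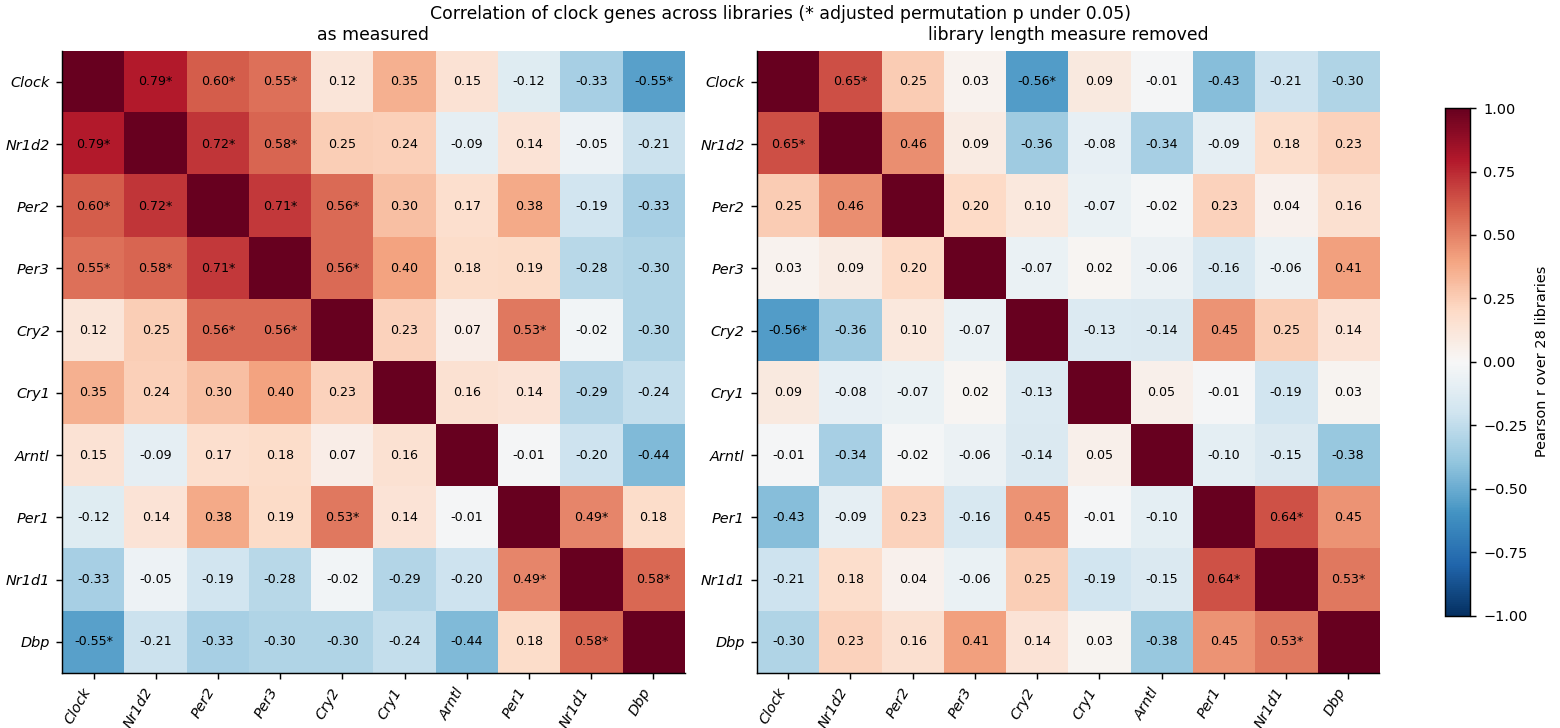
Pearson r of each pair of clock genes over the 28 libraries, as measured (left) and with the length measure removed from each gene (right); stars mark pairs with an adjusted permutation p under 0.05. The block of Clock, Nr1d2, Per2 and Per3 on the left holds 6 starred pairs, of which Clock with Nr1d2 is starred on the right.

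Genes outside the 10 whose levels ran most like those of a clock gene were picked by Pearson r over the 28 libraries, with group means removed. For Arntl they were Hbs1l (r = 0.70, and 0.46 as measured) and Adamts5 (0.69, and 0.49 as measured). Adamts5 was at a mean of 0.738 CPM, close to the 0.5 added before the logarithm. For Clock they were Zfr (0.94) and Ddx3x (0.91). For Per1 they were Nr4a1 (0.78), an immediate early transcription factor, and Irf2bpl (0.77). For Per2 they were Arl5a and Ndst3 (both 0.86), for Per3 Nek4 and Shoc2 (both 0.94), and for Cry1 Kif26b (0.74) and Fbxl7 (0.72). For Cry2 they were Kdm6b (0.92) and Fbxo21 (0.89), for Nr1d1 Impa2 (0.77) and Nudt7 (0.73), for Nr1d2 Arih1 (0.91) and Mtmr9 (0.90), and for Dbp Aldh16a1 (0.89) and Endov (0.87). Among named tested genes outside the 10, the share with an r above 0.6 was 18% for Per3, 14.8% for Per2 and 14.5% for Dbp. It was 11.9% for Cry2, 9.73% for Clock and 9.64% for Nr1d2. For Nr1d1 it was 0.407%, for Per1 0.4%, for Cry1 0.342% and for Arntl 0.0969%. A high r was thus common for Per3, Per2, Dbp, Cry2, Clock and Nr1d2, and rare for Nr1d1, Per1, Cry1 and Arntl.

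Of 60 correlations of the clock genes with 3 activity genes (Fos, Junb and Egr1) and 3 glucocorticoid response genes (Fkbp5, Sgk1 and Tsc22d3), 2 passed by Pearson r and 0 by Spearman rho, each adjusted over the 60. Cry2 and Fkbp5, a chaperone induced by glucocorticoids, had r = 0.61 (permutation p = 0.00046, adjusted 0.015) and rho = 0.55 (p = 0.00315, adjusted 0.0945). Nr1d1 and Junb, a subunit of the AP-1 factor, had r = 0.62 (p = 0.00050, adjusted 0.015) and rho = 0.59 (p = 0.00117, adjusted 0.0702). Neither passed without the first library of psilocybin at 3 mg/kg, or without the 2 libraries farthest from the median. With the length measure removed, Nr1d1 and Junb (r = 0.59) and Per1 and Junb (r = 0.57) passed, each with an adjusted permutation p of 0.0423, and Cry2 and Fkbp5 did not (0.354). As measured, Per1 and Junb had r = 0.46 (permutation p = 0.0144, adjusted 0.205). Fosb, Arc and Nr4a1, also among the activity genes described below, were not in the 60 correlations, nor were the other glucocorticoid response genes. Nr4a1, picked above for its likeness to Per1, had r = 0.80 with Per1 as measured, which was not tested. With group means removed, Dbp and Tsc22d3 (r = 0.72, adjusted permutation p = 0.0342) and Cry2 and Fkbp5 (r = 0.64, adjusted 0.0495) passed, and Nr1d1 and Junb did not (0.0872).

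Other genes of the clock were looked at through a list of 23, made of activators, further D-box factors, kinases, ubiquitin ligases and outputs, of which 20 could be tested. Of these, 0 passed in any of the 18 contrasts or among the 7 groups by edgeR, and 10 of 360 tests (2.78%) had an unadjusted p under 0.05, where the share of all tested genes was 1.3 to 5.74% in the contrasts. The 3 with the smallest p among the 7 groups were Cirbp, Timeless and Csnk1e. Cirbp, a cold-inducible RNA-binding protein, was at 68.1 ± 2.61 CPM in vehicle with group means from 61.6 ± 11.4 CPM (both drugs at 3 mg/kg, which holds the library that stood apart) to 76.9 ± 5.83 CPM (ketanserin at 3 mg/kg; SD, n = 4 each), and with an unadjusted p of 0.0766 over the groups. Timeless was at 2.42 ± 0.415 CPM in vehicle, with group means from 1.62 ± 0.209 CPM (ketanserin at 1 mg/kg) to 3.1 ± 1.29 CPM (both drugs at 3 mg/kg), and an unadjusted p of 0.0963. Csnk1e, a kinase of the PER proteins, was at 111 ± 9.24 CPM in vehicle, with group means from 107 ± 5.78 CPM (ketanserin at 1 mg/kg) to 124 ± 14.0 CPM (both drugs at 3 mg/kg), and with an unadjusted p of 0.153. Arntl2 was below the filter. Of 6 activity genes (Fos, Fosb, Junb, Egr1, Arc and Nr4a1) 0 passed, and 31 of 108 tests (28.7%) had an unadjusted p under 0.05. All 31 were in contrasts that include the vehicle libraries, and 0 were in those between drug groups or between doses. The 6 activity genes had positive log2 fold changes in each of the 6 treated groups against vehicle, as Per1 had. Their medians ran from 0.38 to 0.66, and these comparisons share the vehicle libraries. Of 6 glucocorticoid response genes 0 passed, with 4 of 108 (3.70%).

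In the annotation of the deposited table, on rat build rn6, Arntl lies at chr1:178039063-178137465, Dbp at chr1:101687855-101692846 and Cry2 at chr3:81314149-81344110. Per3 lies at chr5:168086998-168123395, Cry1 at chr7:24534615-24634097 and Per2 at chr9:98555169-98597359. Per1 lies at chr10:55687050-55695994 and Nr1d1 at chr10:86683875-86690815. Clock lies at chr14:34446616-34502218 and Nr1d2 at chr15:8730871-8757165. All are protein-coding genes, and the values are counts over the whole gene, with no isoforms told apart.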

How the data were processed

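Raw counts of reads per gene for 28 libraries were deposited by the authors, together with FPKM values. Per the submitters' processing notes, featureCounts 1.5.0-p3, StringTie 1.3.3b and HISAT2 2.0.5 were run on build rn6, with no roles given. Libraries were directional and made from messenger RNA, per the labels. The deposited FPKM imply library sizes 0.915 to 1.07 times the total counts. The 3842 unnamed transcripts, 1.99 to 4.46% of a library, were kept in totals. Counts were filtered (filterByExpr by group), scaled by TMM and fitted in edgeR 4.0.16 (R 4.3.3) over all 28 libraries with 1 coefficient per group and 21 residual degrees of freedom. Two-sided robust quasi-likelihood tests were adjusted by Benjamini-Hochberg over 17404 genes and called at 0.05, and the scripts were tested on simulated data. Correlations used log2(CPM + 0.5) and 100000 permutations in scipy 1.17.1. DESeq2 1.42.0, other filters and scalings, and leaving out each library in the edgeR fits were alternatives. For correlations, the only libraries left out singly were the fourth of both drugs at 3 mg/kg and the first of psilocybin at 3 mg/kg. Replicate numbers name libraries only. No 2 libraries held identical counts. Arntl and Per1 are given library by library because they had an unadjusted p under 0.05 against vehicle; Per3 and Dbp were added after their values were seen. Of the wider list, the 3 genes with the smallest p among the groups are named, and for each clock gene the 2 named genes with the highest r. The clock genes and the lists were chosen with earlier results of these data known.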

Additional observations from a re-analysis of the deposited data

Results flagged for a closer look

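In each set of 4 libraries of a group, the highest and the lowest value of each clock gene were compared with the nearest of the others, and 8 of 70 sets held a library far from its group by Dixon's criterion. For independent sets of normal values the criterion flags about 1 in 20, but these sets share libraries and some genes moved together. The share of sets flagged over all tested genes was not computed, so that the 8 cannot be called particular to clock genes. The third library of both drugs at 1 mg/kg held 3 of the 8. Clock was at 33.5 CPM there against 50.02 to 53.4 in the other 3, Per3 at 12.5 against 21.4 to 23.3, and Dbp at 216 against 172 to 175. The length measure of that library was -0.24, against 0.10 to 0.31 in the other 3 of its group, and its part in these values was not tested.

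Per3 in the fourth library of ketanserin at 1 mg/kg was at 24.6 CPM against 12.5 to 14.5, and the length measure was 0.23 there against -0.18 to -0.16. Cry2 in the first library of psilocybin at 3 mg/kg was at 101.5 CPM against 141 to 148, with the lowest length measure of all libraries, -0.32. Dbp in the third library of ketanserin at 3 mg/kg was at 136 CPM against 173 to 179, with the highest length measure, 0.31. Cry1 in the fourth library of psilocybin at 3 mg/kg was at 12.3 CPM against 8.80 to 9.36, with a length measure of -0.0031. Nr1d2 in the third library of psilocybin at 3 mg/kg was at 62.2 CPM against 68.5 to 68.6. This small difference was flagged because the other 3 were nearly equal, and the length measure of the library was -0.014.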

How the results depend on the processing

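The number of clock genes called was 0 under every alternative run, with DESeq2, RLE size factors, other filters, unnamed transcripts left out, the length measure as a covariate, only the groups compared and each library left out. Calls over all genes in a comparison were 0 to 3 in the reported fit, up to 11 with DESeq2, up to 4 with a library left out and up to 5 with the length covariate. No paired analysis was possible because the labels number no replicates. For 65 log2 fold changes, the 60 against vehicle and the 5 others with an unadjusted p under 0.05, 1757 of 1820 values kept their direction with a library left out, and those that turned were at most 0.14 in size. Of the values printed above, those that crossed 0 with a library left out were those for Arntl with psilocybin at 1 mg/kg (-0.107 to 0.0090) and ketanserin at 3 mg/kg (-0.018 to 0.075), Dbp with psilocybin at 1 mg/kg (-0.192 to 0.0070) and both drugs at 3 mg/kg (-0.082 to 0.206), and Nr1d1 with psilocybin at 1 mg/kg (-0.102 to 0.12). They also crossed 0 for Nr1d2 with psilocybin at 1 mg/kg (-0.201 to 0.030) and both drugs at 3 mg/kg (-0.070 to 0.175), Per2 and Cry1 with both drugs at 1 mg/kg (-0.074 to 0.307 and -0.101 to 0.123), and Per3 with both drugs at 1 mg/kg (-0.18 to 0.22) and 3 mg/kg (-0.14 to 0.27). The length covariate, chosen after seeing the data, turned 9 of the 65. Of those printed, the log2 fold change was then -0.0038 for Nr1d1 with psilocybin at 1 mg/kg, -0.038 for Per3 and -0.0031 for Cry1 with both drugs at 1 mg/kg, and -0.012 for Nr1d2 with both drugs at 3 mg/kg. With that measure removed, 4 pairs of clock genes were correlated in place of 12, and the r of Per3 and Cry2 was -0.067. Correlations with activity and glucocorticoid genes numbered 2 in the reported analysis and 0 without the 2 farthest libraries. They numbered 2 without the fourth library of both drugs at 3 mg/kg and 0 without the first of psilocybin at 3 mg/kg. No other library was left out singly for correlations. In the vehicle libraries alone 2 genes changed place in the order of levels, Nr1d2 and Arntl. The causes of these changes were not tested. The depth gave Cry1 a counting error of 8.15%, and 1.83% for Dbp, below their spread between animals.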
